A study of Mus musculus with 40 samples.

Results

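Smooth muscle contractile genes encode the actin, the myosin and the actin-binding proteins of the contractile apparatus, and fibroblasts that turn into myofibroblasts express them. The 10 genes described here are Acta2, Actg2, Tagln, Cnn1, Myh11, Myl9, Tpm1, Tpm2, Lmod1 and Smtn. They were listed by name as contractile proteins, at a time when earlier results of these data were known. All 10 were found in a table of 55414 genes, and all 10 were among the 25210 genes that had at least 10 counts in total and were tested. Myofibroblasts are the contractile, matrix-producing fibroblasts of a healing scar. Transforming growth factor β (TGFβ) is the ligand best known for driving this state, through SMAD proteins and through serum response factor (SRF), which binds the DNA element called the CArG box with coactivators of the myocardin family. TGFβ-activated kinase 1 (TAK1, gene Map3k7) transmits signals of interleukin-1β (IL-1β), tumor necrosis factor α (TNFα) and TGFβ to NFκB and to stress kinases.

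Cardiac fibroblasts came from hearts of adult male C57BL/6J TAK1fl/fl mice, in which LoxP sites flank the Map3k7 exon for the ATP-binding site, and were cultured with serum and basic fibroblast growth factor (bFGF) until use at the first passage. All groups carry the floxed allele and all received an adenovirus with a CMV promoter, which expressed either LacZ (TAK1 intact) or iCre recombinase (TAK1 deleted). Serum-starved cells then stayed without ligand (CTRL) or were given 20 ng/ml bFGF, 10 ng/ml of TGFβ or of TNFα, or 15 ng/ml IL-1β, in each case for 24 h. The 2 viruses and 5 treatments gave 10 groups of 4 replicates and 40 poly-A RNA-seq libraries of 25360947 to 66160732 gene counts each. The CMV promoter is not restricted to fibroblasts, so any transduced cell could express Cre, and the cells are primary cultures without cloning. In bulk RNA, a change in the number of expressing cells and a change in RNA per cell cannot be told apart.

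Map3k7 counts checked the labels, although a transcript that lacks the floxed exon is still counted. Its level was 144 to 251 CPM (counts per 1000000 counts of a library, scaled by the TMM method) in the 20 LacZ libraries and 122 to 160.2 CPM in the 20 iCre libraries. In each of the 5 treatments the iCre libraries were below all LacZ libraries, for example 154, 126, 150.4 and 153 CPM in iCre TGFβ replicates 1 to 4 against 229, 222, 222 and 233 CPM in LacZ TGFβ. The summed level of 7 fibroblast markers was 9344 to 66386 CPM over the libraries. That of 3 endothelial markers was 0.746 to 13.4 CPM, and that of 3 leukocyte markers was 2.03 to 20.8 CPM. The 4 cardiomyocyte markers summed to 0.516 to 111 CPM, while Myh6 was under the count minimum and Myh7 was at 0 in all 4 libraries of 6 groups. These markers of other cells were thus low beside the fibroblast markers. The 7 markers of pericytes and vascular smooth muscle, which also express the genes described here, summed to 157 to 2066 CPM, with Rgs5, a pericyte gene, at 60.4 to 1365 CPM among them. Replicate 2 stood apart: in all 10 groups it had the lowest Rgs5 level, the lowest leukocyte sum and the highest endothelial sum of the 4 replicates.

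The members differed widely in abundance before any ligand. In LacZ CTRL cells the mean levels per kilobase of exon were highest for Tpm1 (82.1 ± 56.7 CPM per kilobase, SD), Acta2 (80.6 ± 29.0) and Tagln (79.3 ± 20.6). Tpm1 ranked first through replicate 2, at 1083 CPM against 323 to 365 CPM in the other replicates. Tpm2 (42.7) and Myl9 (36.5 CPM per kilobase) followed. Smtn came next, ahead of Lmod1. Lmod1 was at 4.35, Cnn1 at 1.04, Actg2 at 0.584 and Myh11 at 0.293 CPM per kilobase. The last 2 were near the limit of detection, with as few as 2 counts in 1 library for each. The summed level of the 10 genes was 1131 ± 499.7 CPM in LacZ CTRL cells and 7947 ± 3864 CPM in LacZ TGFβ cells (SD, n = 4 here and below). Acta2 made up 23.4% of the summed level per kilobase without ligand and 56.2% with TGFβ, while Tpm1 made up 23.8% and 7.33%. The 23.8% includes the high Tpm1 level of replicate 2.

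**Figure D1:**
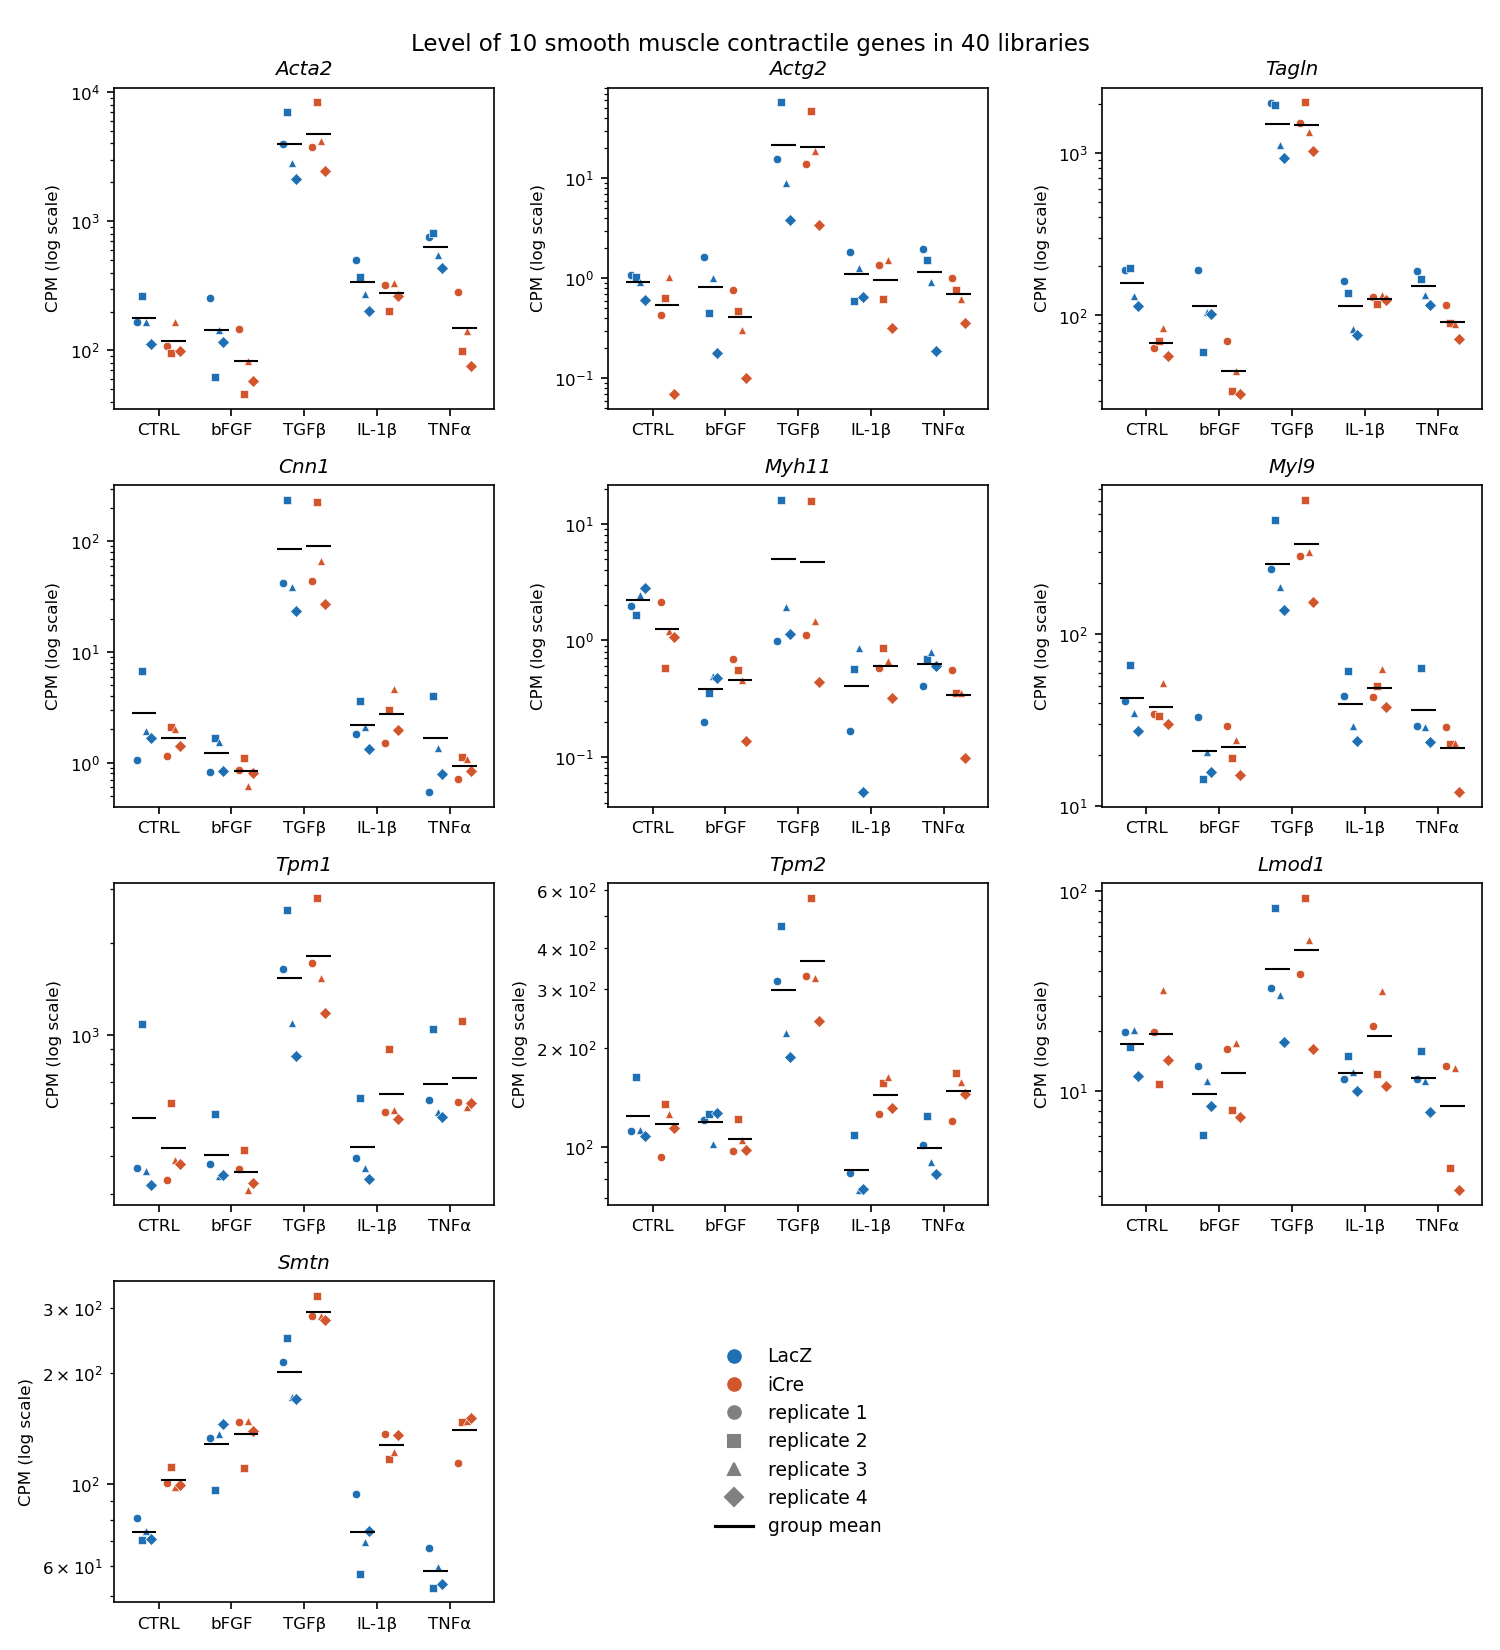
Level of each of the 10 genes in CPM (log axis) by treatment, with LacZ libraries in blue and iCre libraries in orange. Each point is 1 library, its shape gives the replicate number and the line is the group mean. The TGFβ libraries are above all others of their virus for Acta2, Actg2, Tagln, Cnn1, Myl9, Tpm2 and Smtn, whereas for Myh11 only replicate 2 is high.

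Promoters were read from RefSeq (GRCm38.p6, the mm10 build of the counts) because 9 of the genes rose together with TGFβ, as described in the next paragraphs. A window from 250 bases before to 50 after the start site was found for 7 of the 10, all but Actg2, Tagln and Myh11. The CArG box of SRF, searched on both strands, was in 1 of the 7 (Myl9) and in 1.63% of all 32851 mouse promoters. CATTCC, the core of the TEAD factors' element, was in 4 of the 7 (Acta2, Tpm1, Lmod1 and Smtn) and in 14.7% of all. CAGAC, the SMAD-binding letters, was in 3 of the 7 (Acta2, Cnn1 and Smtn) and in 49.6% of all. A CArG box with 1 changed letter, a search chosen after the sequences were seen, was in 2 of the 7 (2 matches in Acta2 and 1 in Myl9) and in 8.50% of all. The Acta2 promoter (chr19:34255324-34255623, minus strand) is shown because Acta2 reached the highest level, with the CATTCC match (on the opposite strand) and both changed CArG boxes in capitals. Its CAGAC match is left in lower case. The Myl9 promoter (chr2:156775214-156775513, plus strand) is the one with a full CArG box, given in capitals. The promoter of Srf itself (chr17:46556113-46556412, minus strand) is shown with its 2 CArG boxes in capitals, since Srf also rose with TGFβ.
Acta2: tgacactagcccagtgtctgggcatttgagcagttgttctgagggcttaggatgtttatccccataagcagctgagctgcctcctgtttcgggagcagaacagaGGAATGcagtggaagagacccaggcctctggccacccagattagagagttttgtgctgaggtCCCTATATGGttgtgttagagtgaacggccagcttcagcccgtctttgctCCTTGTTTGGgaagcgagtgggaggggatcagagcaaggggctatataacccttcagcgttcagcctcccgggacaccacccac
Myl9: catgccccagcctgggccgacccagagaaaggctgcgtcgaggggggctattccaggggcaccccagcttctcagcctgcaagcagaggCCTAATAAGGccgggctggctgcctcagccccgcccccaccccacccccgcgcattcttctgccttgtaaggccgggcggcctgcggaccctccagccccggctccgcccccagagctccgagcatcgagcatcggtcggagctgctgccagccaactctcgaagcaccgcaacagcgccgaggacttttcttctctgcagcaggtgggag
Srf: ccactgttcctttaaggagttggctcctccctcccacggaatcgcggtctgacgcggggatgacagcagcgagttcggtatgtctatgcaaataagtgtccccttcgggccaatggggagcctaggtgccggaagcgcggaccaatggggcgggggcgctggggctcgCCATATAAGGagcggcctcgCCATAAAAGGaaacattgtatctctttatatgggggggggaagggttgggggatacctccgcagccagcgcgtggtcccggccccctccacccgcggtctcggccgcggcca
A match is a description of these letters and was not measured as a binding site.

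TGFβ raised 9 of the 10 genes in LacZ fibroblasts, all but Myh11. The rises ran from 2.41-fold for Lmod1 and 2.44-fold for Tpm2 to 23.0-fold for Acta2, 23.8-fold for Actg2 and 30.5-fold for Cnn1. Of all 25210 genes tested, 17.5% were called higher. The median change of the 10 members was 2.10 on the log2 scale, against -0.17 over all genes. A gene was called where edgeR's quasi-likelihood test gave a Benjamini-Hochberg adjusted p of at most 0.05 over all genes, and log2 fold changes are given ± SE with that adjusted p. The ligand comparisons of each virus share the same 4 CTRL libraries.

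Both smooth muscle actins rose from very different levels. Acta2 (ENSMUSG00000035783, chr19:34241090-34255590, minus strand), the α-smooth muscle actin used as the standard myofibroblast marker, was at 166, 265, 165 and 113 CPM in LacZ CTRL replicates 1 to 4. With TGFβ its level was 3979.9, 7057, 2839 and 2108 CPM. The lowest TGFβ library was far above the highest CTRL library, which gave a log2 fold change of 4.52 ± 0.42 (adjusted p = 2.24e-05). Actg2 (ENSMUSG00000059430, chr6:83512905-83536265, minus strand), the γ-smooth muscle actin of visceral muscle, was at 1.07, 1.03, 0.923 and 0.610 CPM without ligand and 15.6, 57.8, 8.97 and 3.86 CPM with TGFβ. The groups did not overlap, although replicate 2 was far above the other TGFβ libraries and the change fell from 4.58 to 3.45 on the log2 scale without replicate 2 (adjusted p = 0.000946 and 0.000110). Without replicate 2 the change of Acta2 was 4.34 (adjusted p = 4.30e-07). The coding sequences of actins are alike, but no stretch of read length in the members' transcripts was shared with a transcript of another gene.

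Tagln and Cnn1 encode transgelin (SM22α) and calponin 1, a pair of related actin-binding proteins. Tagln (ENSMUSG00000032085, chr9:45929619-45936058, minus strand) went from 189.9, 195, 131 and 114 CPM to 2005, 1953, 1117 and 925 CPM with TGFβ. This was a log2 fold change of 3.28 ± 0.30 (adjusted p = 2.11e-05), and replicates 1 and 2 were alike and above replicates 3 and 4. Cnn1 (ENSMUSG00000001349, chr9:22099216-22109630, plus strand) was at 1.05, 6.74, 1.92 and 1.66 CPM in CTRL and 41.9, 237, 38.4 and 23.5 CPM with TGFβ. Replicate 2 was the highest for Cnn1 in both groups, and the log2 fold change was 4.93 ± 0.88 (adjusted p = 0.00138). Tagln overlaps Pcsk7, on the other strand, and whether the counting used strand is not given in the sources used here. Pcsk7 was at 25.2 to 26.5 CPM in LacZ CTRL and 36.7 to 41.8 CPM in LacZ TGFβ libraries.

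The 2 myosin subunits differed from each other. Myl9 (ENSMUSG00000067818, chr2:156775420-156781658, plus strand), the regulatory light chain whose phosphorylation starts contraction, rose from 41.1, 66.1, 35.1 and 27.3 CPM to 240.4, 465, 189 and 139 CPM. The groups did not overlap (log2 fold change 2.63 ± 0.38, adjusted p = 0.000388). Myh11 (ENSMUSG00000018830, chr16:14194535-14291372, minus strand), the smooth muscle myosin heavy chain that marks mature smooth muscle, was at 1.96, 1.67, 2.47 and 2.82 CPM in CTRL and 0.993, 16.1, 1.95 and 1.14 CPM with TGFβ. Replicate 2 was at 9.64 times its own control whereas the other 3 replicates were below theirs, and the log2 fold change of 1.19 ± 0.80 was not called (adjusted p = 0.279). Without replicate 2 the Myh11 change was -0.81 on the log2 scale (adjusted p = 0.0609).

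Tropomyosins lie along the actin filament and are also found in cells that are not muscle. Tpm1 (ENSMUSG00000032366, chr9:67022590-67049406, minus strand) was at 365, 1083, 359 and 323 CPM in CTRL and 1649, 2569, 1092 and 852 CPM with TGFβ. Each replicate was above its own control, but the groups overlapped because CTRL replicate 2 was above TGFβ replicate 4 (log2 fold change 1.57 ± 0.45, adjusted p = 0.0189). The Tpm1 call was lost without replicate 1 (1.39, adjusted p = 0.102) or replicate 3 (1.56, adjusted p = 0.0643). Tpm2 (ENSMUSG00000028464, chr4:43514711-43523765, minus strand) rose from 112, 163, 113 and 108 CPM to 318, 467, 222 and 187 CPM. The 2 groups of Tpm2 were apart (1.29 ± 0.26 on the log2 scale, adjusted p = 0.00323). The table counts whole genes, so muscle and nonmuscle tropomyosin isoforms were not separated.

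Lmod1 and Smtn encode leiomodin 1, which nucleates actin filaments in smooth muscle, and smoothelin, a protein of contractile smooth muscle. Lmod1 (ENSMUSG00000048096, chr1:135324807-135368065, plus strand) was at 19.7, 16.7, 20.2 and 11.9 CPM in CTRL and 33.0, 82.7, 30.3 and 17.7 CPM with TGFβ. Only replicate 2 was more than 2 times the highest CTRL library, the groups overlapped at replicate 4, and the log2 fold change was 1.27 ± 0.40 (adjusted p = 0.0302). Lmod1 was no longer called without replicate 1, 2 or 3, with log2 fold changes of 1.44, 0.65 and 1.49 (adjusted p = 0.0706, 0.0575 and 0.0588). Smtn (ENSMUSG00000020439, chr11:3517523-3540612, minus strand) rose from 80.8, 70.6, 74.6 and 71.2 CPM to 214, 249, 172 and 169.6 CPM. Relative to its mean, Smtn had the smallest SD of the 10 genes in both groups, and it had a log2 fold change of 1.46 ± 0.13 (adjusted p = 2.17e-05). Predicted genes overlap Smtn and Lmod1 in the annotation, so a few of their reads may belong elsewhere.

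The size of the TGFβ response varied among the replicates more for some members than for others. Within replicates 1 to 4, LacZ TGFβ levels were 24.0, 26.6, 17.2 and 18.7 times the CTRL level of the same number for Acta2. The ratios were 14.5, 56.0, 9.73 and 6.33 for Actg2, 39.9, 35.1, 20.1 and 14.2 for Cnn1 and 0.506, 9.64, 0.791 and 0.403 for Myh11. For Smtn they were 2.65, 3.52, 2.31 and 2.38. Replicate 2 had the highest level of 9 of the 10 genes in LacZ TGFβ cells, with Tagln the exception, and of all 10 in iCre TGFβ cells. Its level was 1.34 to 11.8 times the mean of the other 3 replicates in LacZ and 1.14 to 15.6 times in iCre, largest for Myh11 in both. The part of the low Rgs5 and the high endothelial marker level of replicate 2 in this spread was not tested.

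**Figure D2:**
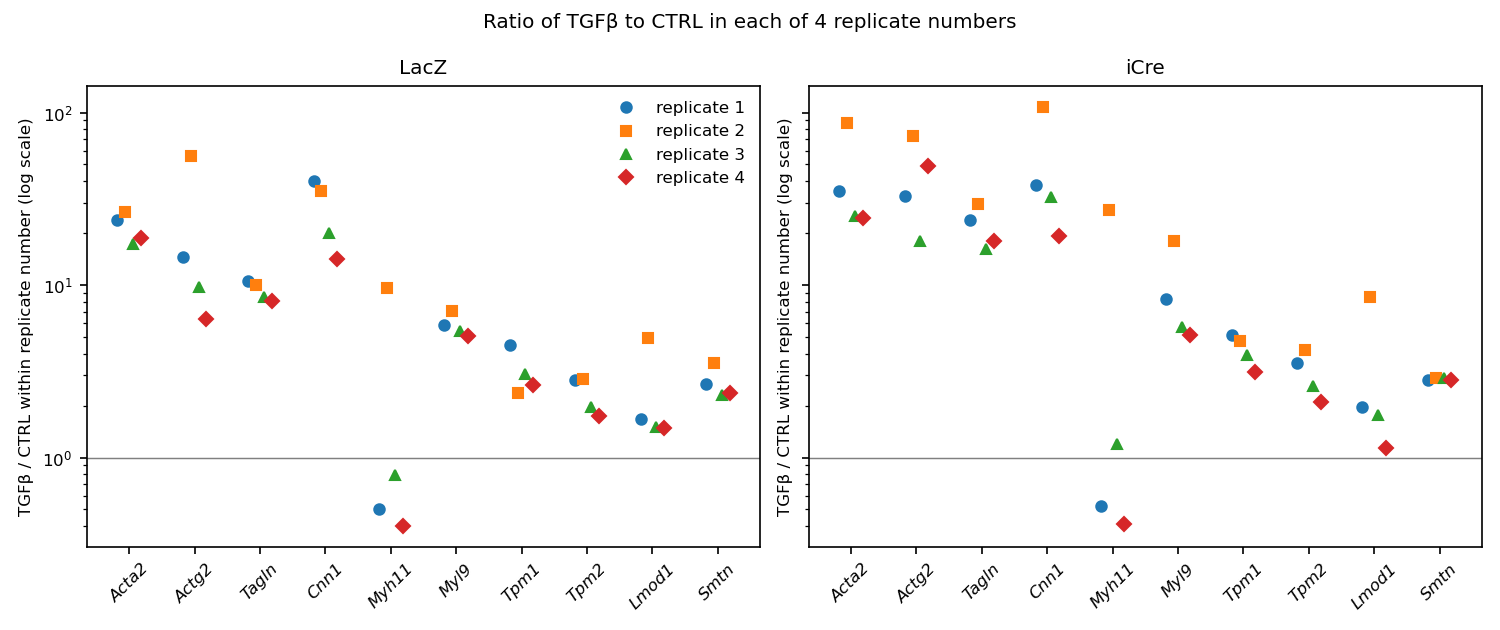
Ratio of the level with TGFβ to the CTRL level of the same replicate number (log axis) for the 10 genes, in LacZ and iCre fibroblasts. Each marker shape is 1 replicate number. Acta2 lies between 17.2 and 26.6 in LacZ and between 24.5 and 87 in iCre, while Myh11 spreads on both sides of 1.

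The TGFβ response was also present in cells with TAK1 deleted. In iCre fibroblasts TGFβ raised the same 9 genes, beside 18.6% of all genes called higher, and the median change of the 10 was 2.65 against -0.11 over all genes (log2). Acta2 went from 108, 96.2, 166 and 99.7 CPM to 3786, 8363, 4197 and 2441 CPM, a log2 fold change of 5.34 ± 0.40 (adjusted p = 4.43e-06). Tagln went from 63.1, 69.4, 83.4 and 56.2 CPM to 1512, 2044, 1344 and 1017 CPM, a log2 fold change of 4.46 ± 0.23 (adjusted p = 6.51e-07). The iCre CTRL libraries were all below the LacZ CTRL libraries for Tagln, while the TGFβ levels of both viruses overlapped over most of their range. Cnn1 rose from 1.68 ± 0.470 to 91.1 ± 92.3 CPM (5.76 ± 0.68, adjusted p = 7.97e-05), Actg2 from 0.544 ± 0.405 to 20.7 ± 18.5 CPM (5.19 ± 0.82, adjusted p = 0.000561) and Myl9 from 37.6 ± 10.1 to 337 ± 191 CPM (3.18 ± 0.37, adjusted p = 7.06e-05). Leaving out replicate 2 lowered the change of Cnn1 to 4.87 and that of Actg2 to 4.43, and leaving out replicate 3 raised that of Actg2 to 5.79, all on the log2 scale and all still called. The tropomyosins and Smtn rose less than the actins and calponins, as in LacZ cells. Their log2 fold change was 2.11 ± 0.27 for Tpm1, 1.66 ± 0.23 for Tpm2 and 1.53 ± 0.084 for Smtn (adjusted p = 0.000144, 0.000260 and 9.11e-07). Lmod1 was called at 1.42 ± 0.47 (adjusted p = 0.0364) but not without replicate 1 (1.55, adjusted p = 0.0832) or replicate 2 (0.77, adjusted p = 0.142), nor with GC correction alone (1.24, adjusted p = 0.0625). Myh11 was at 2.16, 0.581, 1.22 and 1.08 CPM in iCre CTRL and 1.12, 15.7, 1.46 and 0.443 CPM in iCre TGFβ cells, with replicate 2 again the only high library (1.90 ± 0.96, adjusted p = 0.153). Without replicate 2 the direction turned (-0.55, adjusted p = 0.375).

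The TGFβ response itself was compared between the viruses by an interaction term over 16 libraries. None of the 10 genes was called by edgeR, beside 4.51% of all genes in either direction. An unadjusted p under 0.05 was reached by 1 of the 10, beside 3839 of all 25210 genes. All 10 estimates were positive, with a median of 0.55 against 0.040 over all genes (log2). With GC correction and the replicate number as a block 8 were positive and 2 negative, with a median of 0.37 against -0.0053 over all genes. The interaction was 0.79 ± 0.54 for Acta2 and 1.16 ± 0.37 for Tagln (log2, adjusted p = 0.554 and 0.0989). With the replicate number as a block Tagln was called, at 1.14 (adjusted p = 0.00268), as the only 1 of the 10 beside 8.04% of all genes. DESeq2 also called Tagln alone (adjusted p = 0.0209), and it stayed called when GC content was corrected with the block (0.98, adjusted p = 0.0200). Directly compared under TGFβ, iCre and LacZ cells differed for Smtn, the 1 member called, beside 2.51% of all genes called higher. Smtn was at 285, 323, 285 and 278 CPM in iCre and 214, 249, 172 and 169.6 CPM in LacZ cells, with no overlap (0.51 ± 0.13, adjusted p = 0.0332). The Smtn call was lost without replicate 1, 3 or 4 (adjusted p = 0.105, 0.223 and 0.194) and with GC correction (0.19, adjusted p = 0.583). With the block, 4 members were called higher in iCre (Smtn, Myl9, Tpm2 and Tpm1, beside 20.8% of all genes), and with GC correction and the block none of the 10 was, beside 9.34% of all genes, with Smtn at 0.20 (adjusted p = 0.152). The 12 iCre libraries treated with TNFα, IL-1β or TGFβ had counts that rose with GC content, by 0.190 to 0.319 log2 units per 10 percentage points relative to the mean library, whereas the slope was -0.234 to -0.000235 in the other 28 libraries. Smtn has the highest exon GC content of the 10 (60.1%, the others 49.6 to 56.6%). Under TGFβ the fibroblast markers had 1 lower (4 lower with the block) and the pericyte and smooth muscle markers 1 higher (2 higher with the block) in iCre cells, of 7 each. Their part in the Smtn difference was not tested.

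**Figure D3:**
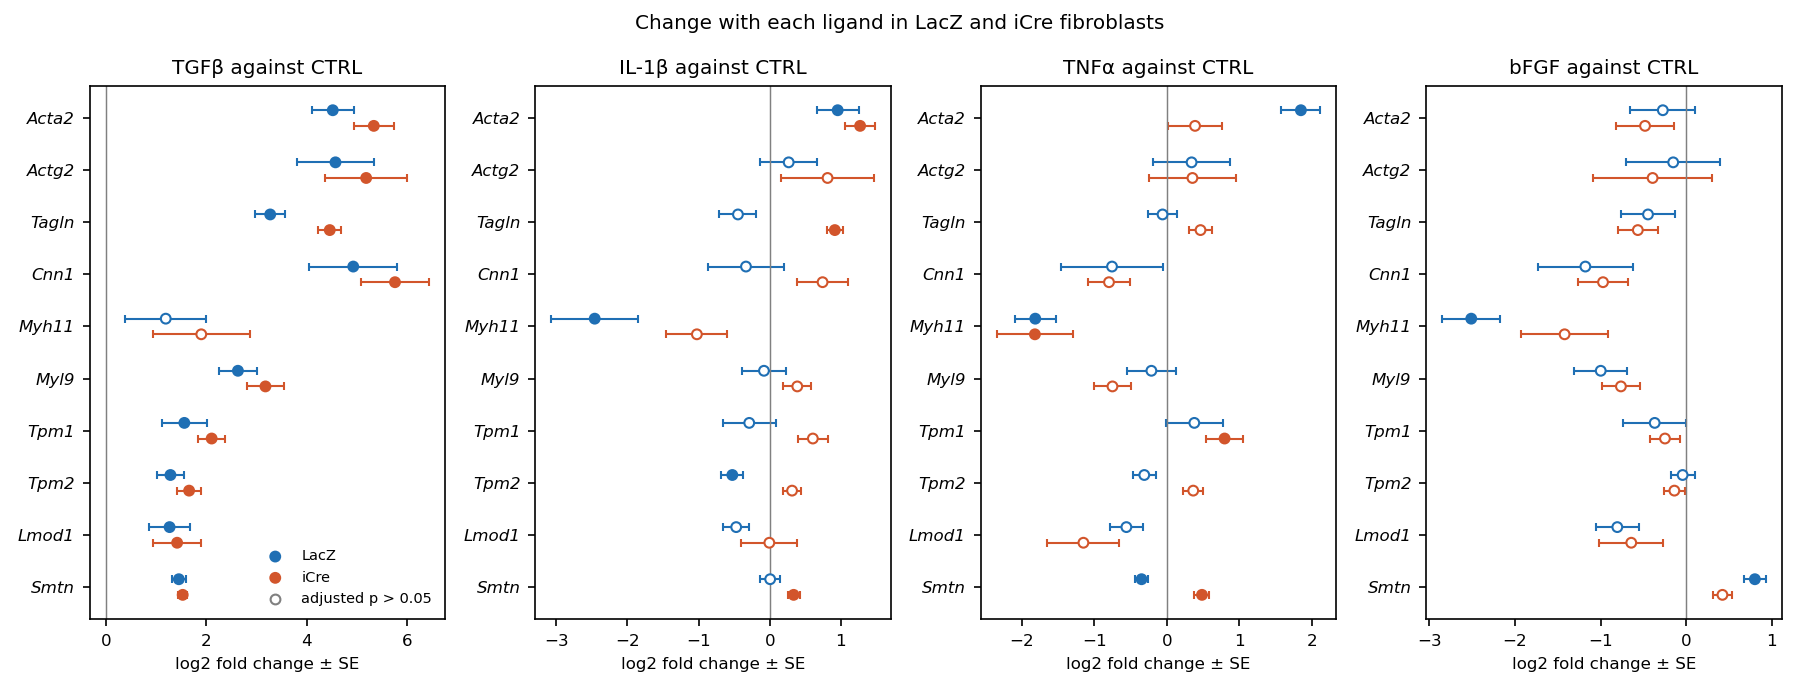
Log2 fold change ± SE of each gene against CTRL for the 4 ligands, in LacZ (blue) and iCre (orange) fibroblasts, 4 libraries per group. Filled points have an adjusted p of at most 0.05 by edgeR. With TGFβ 9 genes are filled in both viruses, and with the other ligands at most 3.

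In LacZ cells without the replicate block, IL-1β changed few of the genes and did so in both directions. Acta2 rose, and Myh11 and Tpm2 fell. These 3 called of 10 compare with 20.7% of all genes in either direction, a similar share, and the median change of the members was -0.31 against -0.097 over all genes (log2). Acta2 was at 504, 371, 276 and 203 CPM with IL-1β, above the CTRL level of the same number in 4 of 4 replicates. It rose by 0.96 ± 0.30 on the log2 scale (adjusted p = 0.0455), a call lost without replicate 1, 3 or 4 (0.65, 1.02 and 0.97, adjusted p = 0.225, 0.139 and 0.0521). It was also lost with all 40 libraries in 1 fit (adjusted p = 0.125) and among protein-coding genes only (adjusted p = 0.0517). Myh11 was at 0.166, 0.570, 0.854 and 0.0499 CPM with IL-1β, below every CTRL library (-2.46 ± 0.61, adjusted p = 0.0176). Without replicate 1 or 4 the Myh11 call was lost (-2.27 and -1.93, adjusted p = 0.0742 and 0.0543). The smallest of the called changes was that of Tpm2. It was at 83.6, 109, 74.3 and 74.7 CPM, lower than its CTRL in 4 of 4 replicates (-0.53 ± 0.16, adjusted p = 0.0387), and was not called without replicate 1, 3 or 4 (adjusted p = 0.0998, 0.152 and 0.130) or with all 40 libraries (adjusted p = 0.0718). With the replicate block 5 genes were called, 1 higher and 4 lower, beside 33.5% of all genes. The additions were Tagln (-0.49, adjusted p = 1.18e-05) and Lmod1 (-0.45, adjusted p = 0.00119), both lower. In the same comparison the 7 pericyte and smooth muscle markers had 4 lower (1 higher and 5 lower with the block), with a median change of -0.75 (log2), while their sum was 339.6 to 867 CPM against 213 to 751 CPM in CTRL. The 7 fibroblast markers had 2 higher (4 higher and 2 lower with the block). The part of these markers in the changes was not tested.

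In iCre cells IL-1β raised Acta2, Tagln and Smtn and lowered none, beside 9.38% of all genes called higher, with a median change of 0.50 over the 10 against 0 over all genes (log2). Acta2 was at 323, 201, 331 and 263 CPM and above all iCre CTRL libraries (1.27 ± 0.21, adjusted p = 0.00297). Tagln was at 130.1, 117, 134 and 125 CPM, the tightest of its groups, and again above all iCre CTRL libraries (0.92 ± 0.12, adjusted p = 0.000925). Smtn was at 137, 117, 122 and 136 CPM (0.34 ± 0.085, adjusted p = 0.0236). The Smtn call was lost without replicate 1, 3 or 4 (adjusted p = 0.158, 0.111 and 0.142) and with GC correction, alone or with the block (0.14 and 0.13, adjusted p = 0.381 and 0.158). With all 40 libraries in 1 fit it was lost as well (adjusted p = 0.0934). With the block 9 of the 10 were called, 8 higher and Myh11 lower, beside 33.8% of all genes. With GC correction and the block 6 were called, beside 29.9% of all genes. Among those added in both fits were Tpm1 (0.61 and 0.50, adjusted p = 3.92e-13 and 1.66e-08) and Cnn1 (0.70 and 0.55, adjusted p = 0.00187 and 0.0232). With the block the fibroblast markers had 2 higher and 1 lower and the pericyte and smooth muscle markers 1 higher and 2 lower, of 7 each.

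The response to IL-1β differed between the viruses for Tagln and Tpm2, both with a more positive change in iCre cells, beside 2.76% of all genes called in that direction. The Tagln interaction was 1.35 ± 0.32 (log2, adjusted p = 0.0135). In LacZ cells Tagln was lower with IL-1β in 4 of 4 replicates (162, 137, 82.3 and 76.0 CPM, -0.45 ± 0.26, adjusted p = 0.270), and in iCre cells it was higher in 4 of 4. The fall of Tagln in LacZ cells was called with the replicate block (-0.49, adjusted p = 1.18e-05). Without replicate 3 or 4 the interaction of Tagln was not called (1.38 and 1.24, adjusted p = 0.0722 and 0.0544). For Tpm2 the interaction was 0.83 ± 0.22 (adjusted p = 0.0263), not called without replicate 1, 3 or 4 (adjusted p = 0.0881, 0.188 and 0.125), with GC correction alone (0.63, adjusted p = 0.135) or with all 40 libraries in 1 fit (adjusted p = 0.0961). With the block 3 interactions were called, beside 16.9% of all genes, with Tpm1 (0.76, adjusted p = 0.00806) added. With GC correction and the block these were 1.22 for Tagln, 0.63 for Tpm2 and 0.67 for Tpm1 (adjusted p = 0.00192, 0.00278 and 0.0241). All 3 kept the sign they had without the correction. Compared directly under IL-1β, iCre cells were higher for Tpm2 (0.74 ± 0.14, adjusted p = 0.0050) and Smtn (0.77 ± 0.15, adjusted p = 0.00535), beside 7.14% of all genes. Tpm2 was at 126, 156, 163 and 131 CPM in iCre against 83.6, 109, 74.3 and 74.7 CPM in LacZ cells, and Smtn was at 117 to 137 against 57.2 to 94.2 CPM. For both genes all iCre libraries were above all LacZ libraries. Both calls were lost without replicate 3 (adjusted p = 0.0607 for Tpm2 and 0.0546 for Smtn), and that of Smtn also with GC correction alone (0.46, adjusted p = 0.0941). With the block Tpm1 was called as well (0.57, adjusted p = 1.20e-05), which made 3 of 10 beside 29.5% of all genes, and with GC correction and the block the same 3 were called beside 22.5%. Cell type markers moved in this comparison too. Of the 7 fibroblast markers 3 were called lower in iCre cells (6 with the block), beside 8.98% of all genes, with a median change of -0.66 (log2) and a sum of 19834 to 31294 CPM in iCre against 34326 to 66386 CPM in LacZ cells. Of the 7 pericyte and smooth muscle markers 2 were called higher (4 with the block), and their sum was 472 to 1053 against 339.6 to 867 CPM. Their part in the differences was not tested.

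TNFα raised Acta2 in LacZ fibroblasts and lowered Myh11 with either virus. In LacZ cells Acta2 rose and Myh11 and Smtn fell, and in iCre cells Tpm1 and Smtn rose and Myh11 fell. These 3 called of 10 in each virus compare with 21.3% of all genes in LacZ and 27% in iCre cells, which is close to the members' share. The median change of the members was -0.26 in LacZ and 0.36 in iCre cells, against -0.083 and -0.040 over all genes (log2). Cell type markers moved with TNFα as well. Of 7 pericyte and smooth muscle markers, LacZ cells had 3 lower (6 lower with the block), with a median change of -0.68 (log2) and a sum of 157 to 512 CPM against 213 to 751 CPM in CTRL, lower in 4 of 4 replicates. In iCre cells these markers had 1 higher and 3 lower (1 higher and 3 lower with the block). Of 7 fibroblast markers, LacZ cells had 1 lower (1 higher and 3 lower with the block) and iCre cells 1 lower (6 lower with the block). The part of these markers in the members' changes was not tested.

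Acta2 was at 749, 809, 551 and 437 CPM in LacZ cells with TNFα, so that every library was above the highest LacZ CTRL library. The change was 1.85 ± 0.27 on the log2 scale (3.61-fold, adjusted p = 0.00111). In iCre cells with TNFα it was at 285, 98.7, 142 and 75.4 CPM. Replicate 1 was at 2.63 times its control and the other 3 were at 0.756 to 1.03 times theirs, and the change was 0.39 ± 0.37 (adjusted p = 0.474). Compared directly under TNFα, Acta2 was 4.17-fold lower in iCre than in LacZ cells, with no overlap (-2.06 ± 0.40, adjusted p = 0.00388). The interaction for Acta2 was -1.47 ± 0.50 and missed the threshold (adjusted p = 0.0584). It passed with the replicate block (-1.59, adjusted p = 0.00675), with GC correction and the block (-1.69, adjusted p = 0.00597), with DESeq2 (adjusted p = 0.0148) and without replicate 1 (-1.92, adjusted p = 0.0198).

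Smtn moved in opposite directions with TNFα in the 2 viruses. It was at 67.1, 52.5, 59.9 and 53.7 CPM in LacZ cells with TNFα, below all LacZ CTRL libraries (-0.35 ± 0.095, adjusted p = 0.0265). In iCre cells with TNFα it was at 114, 148, 148 and 151 CPM, above all iCre CTRL libraries (0.49 ± 0.10, adjusted p = 0.00649). The interaction of 0.82 ± 0.14 was called (adjusted p = 0.000907), beside 8.38% of all genes higher, and also without each replicate in turn and with GC correction and the block (0.56, adjusted p = 0.0106). The separate changes were less firm: without replicate 3 or 4 they were -0.35 and -0.33 in LacZ (adjusted p = 0.129 and 0.131) and 0.43 and 0.41 in iCre cells (adjusted p = 0.0763 and 0.0768). The fall in LacZ cells was not called with GC correction alone (-0.25, adjusted p = 0.0800) or with all 40 libraries in 1 fit (adjusted p = 0.0562). With the block 3 interactions were called, beside 25.1% of all genes, namely Smtn, Acta2 and Tpm2 (0.66, adjusted p = 0.00206).

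Myh11 fell with TNFα in both viruses. In LacZ cells it was at 0.407, 0.699, 0.801 and 0.606 CPM, below all CTRL libraries (-1.82 ± 0.29, adjusted p = 0.00177). In iCre cells it was at 0.559, 0.357, 0.350 and 0.0973 CPM, with the highest library just under the lowest iCre CTRL library (0.581 CPM). The change was -1.82 ± 0.53 (adjusted p = 0.0279), a call lost without replicate 3 (-1.85, adjusted p = 0.129) or 4 (-1.63, adjusted p = 0.0793). Tpm1 was at 600.3, 1108, 582 and 597 CPM in iCre cells with TNFα (0.80 ± 0.25, adjusted p = 0.0397) and was not called without replicate 1, 3 or 4 (adjusted p = 0.0875, 0.120 and 0.129), with GC correction alone (adjusted p = 0.0756) or with all 40 libraries (adjusted p = 0.0892). In that fit of all 40 libraries Myh11 was not called in LacZ or iCre cells either (adjusted p = 0.125 and 0.0996). With the replicate block 8 genes were called in each virus, beside 35.5% of all genes in LacZ and 36.1% in iCre cells. Cnn1, Myl9 and Lmod1 were then lower in both viruses. Their blocked changes in LacZ cells were -0.77, -0.25 and -0.57 (adjusted p = 0.00160, 0.0124 and 0.000500). In iCre cells they were -0.79, -0.78 and -1.29 (adjusted p = 0.0144, 0.00392 and 0.000840). The tropomyosins behaved otherwise. Tpm2 was lower with the block in LacZ (-0.31, adjusted p = 0.000494) and higher in iCre cells (0.37, adjusted p = 0.00107), while Tpm1 was higher in both (0.52 in LacZ, adjusted p = 0.000207). Tagln was added in iCre cells alone (0.46, adjusted p = 0.00912), and its call there was lost when GC content was corrected as well (adjusted p = 0.0721).

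Under TNFα, iCre cells had less Acta2 and Tagln and more Tpm2 and Smtn than LacZ cells. These 4 called of 10 compare with 27.3% of all genes in either direction. Tagln was at 116, 90.5, 88.6 and 72.0 CPM in iCre and 186, 168, 133 and 116 CPM in LacZ cells (-0.70 ± 0.18, adjusted p = 0.0167), with the highest iCre library at the level of the lowest LacZ library. Smtn was 2.44-fold higher in iCre cells (1.29 ± 0.12, adjusted p = 0.000132). Tpm2 was at 119.8, 168, 157 and 145 CPM in iCre and at 83.0 to 125 CPM in LacZ cells (0.58 ± 0.14, adjusted p = 0.0136). The calls of Tagln without replicate 3 (adjusted p = 0.0762) and of Tpm2 without replicate 3 or 4 (adjusted p = 0.117 and 0.0790) were lost. So was that of Tagln with all 40 libraries in 1 fit (adjusted p = 0.0605) and that of Tpm2 with GC correction alone (0.36, adjusted p = 0.103). With the block 5 members were called, with Myl9 lower in addition (-0.67, adjusted p = 0.0383), beside 32.2% of all genes. With GC correction and the block the same 5 were called beside 28.2%, and the change of Smtn was then 0.98 and that of Acta2 -2.30 (adjusted p = 0.000603 and 0.000269). Rgs5 moved with this comparison, at 1072, 270.2, 1004 and 573 CPM in iCre and 132, 60.4, 354 and 227 CPM in LacZ cells (1.94 ± 0.55, adjusted p = 0.0260, and 0.131 and 0.0853 without replicate 1 and 4), and of the 7 pericyte and smooth muscle markers 3 were called higher and 1 lower in iCre cells. Their summed level was 368 to 1252 CPM in iCre and 157 to 512 CPM in LacZ cells. Of the 7 fibroblast markers 5 were called lower and 0 higher (6 lower with the block), with a median change of -0.71 (log2) and a sum of 9344 to 17858 CPM in iCre against 23047 to 30377 CPM in LacZ cells. The part of these markers in the differences was not tested.

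bFGF, a growth factor that was also in the culture medium before starvation, lowered Myh11 and raised Smtn in LacZ cells. These 2 called of 10 compare with 11.6% of all genes, and the median change of the members was -0.41 against -0.026 over all genes (log2). Myh11 was at 0.198, 0.352, 0.493 and 0.478 CPM with bFGF, below all CTRL libraries (-2.51 ± 0.34, adjusted p = 0.00237). Smtn was at 134, 96.6, 137 and 146 CPM, above all CTRL libraries (0.80 ± 0.13, adjusted p = 0.00473), a call lost without replicate 3 (0.77, adjusted p = 0.0735) or 4 (0.71, adjusted p = 0.0575). Acta2 was at 255, 61.9, 145 and 117 CPM and overlapped CTRL (-0.27 ± 0.38, adjusted p = 0.702). With the block 5 were called, beside 27.3% of all genes, with Cnn1 (-0.95), Myl9 (-0.99) and Lmod1 (-0.83) lower in addition (adjusted p = 0.0119, 0.00146 and 0.000275). The 7 fibroblast markers had 2 lower (1 higher and 4 lower with the block) and the 7 pericyte and smooth muscle markers 1 higher and 1 lower (2 higher and 1 lower with the block).

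In iCre cells edgeR called none of the 10 with bFGF, beside 2.42% of all genes. An unadjusted p under 0.05 was reached by 5 of the 10, beside 4213 of all 25210 genes. DESeq2 called 4 of the 10, and its share over all genes is not given here. The median change of the members was -0.52 against 0 over all genes (log2). Myl9 was at 29.2, 19.1, 24.4 and 15.3 CPM with bFGF and 34.4, 33.4, 52.4 and 30.1 CPM in iCre CTRL, without overlap (-0.76 ± 0.22, adjusted p = 0.118). Smtn was at 147, 111, 149 and 139.7 CPM (0.42 ± 0.11, adjusted p = 0.0790). With the block 7 were called, beside 16.7% of all genes. Acta2 (-0.60), Tagln (-0.62), Cnn1 (-0.97), Myh11 (-1.35), Myl9 (-0.77) and Lmod1 (-0.62) were then lower and Smtn (0.42) higher, with adjusted p from 0.000202 for Myl9 to 0.0241 for Acta2. In the blocked fit the fibroblast markers had 4 lower and the pericyte and smooth muscle markers 2 higher and 1 lower, of 7 each. The interaction of bFGF with iCre was called by edgeR for 0 of the 10 members and for 0% of all genes, and by DESeq2 for 0 members. An unadjusted p under 0.05 was reached by 1 member, beside 765 of all 25210 genes.

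Without ligand, none of the 10 was called between iCre and LacZ cells by edgeR, beside 0.0754% of all genes. An unadjusted p under 0.05 was reached by 4 of the 10, beside 3538 of all 25210 genes. DESeq2 called 2, Tagln and Smtn, and its share over all genes is not given here. Tagln was at 63.1, 69.4, 83.4 and 56.2 CPM in iCre against 189.9, 195, 131 and 114 CPM in LacZ cells. The groups did not overlap, and the log2 fold change of -1.22 ± 0.18 just missed the threshold (adjusted p = 0.0573). Smtn was higher in iCre cells in 4 of 4 replicates, at 98.5 to 111 CPM against 70.6 to 80.8 CPM (0.45 ± 0.077, adjusted p = 0.0706). With the block 4 genes were called, beside 14.5% of all genes. Tagln (-1.20), Acta2 (-0.57) and Myh11 (-0.91) were lower and Smtn (0.45) higher in iCre cells (adjusted p = 2.86e-06, 0.0206, 0.0236 and 0.000265). Both Tagln and Smtn were also called without replicate 2 (adjusted p = 0.0183 and 0.0311). In the blocked comparison the 7 fibroblast markers had 1 higher and 5 lower, with a median change of -0.35 without the block (log2), the 7 pericyte and smooth muscle markers 2 higher and 2 lower and the 3 leukocyte markers 2 lower. The part of these markers in the differences was not tested.

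With bFGF, iCre and LacZ cells differed for 0 of the 10 by edgeR, beside 0% of all genes called. An unadjusted p under 0.05 was reached by 1 of the 10, beside 2585 of all 25210 genes, a similar share. DESeq2 called 1, Tagln, and its share over all genes is not given here. Tagln was at 69.9, 34.3, 45.4 and 32.8 CPM in iCre against 191, 59.5, 104 and 102 CPM in LacZ cells, lower in 4 of 4 replicates (-1.32 ± 0.35, adjusted p = 0.307). The block called Tagln (-1.27, adjusted p = 1.49e-08) and Acta2 (-0.76, adjusted p = 1.61e-06), both lower in iCre cells, beside 13.9% of all genes. Of the 7 fibroblast markers the block called 4 lower, and of the 7 pericyte and smooth muscle markers 2 higher and 1 lower.

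**Figure D4:**
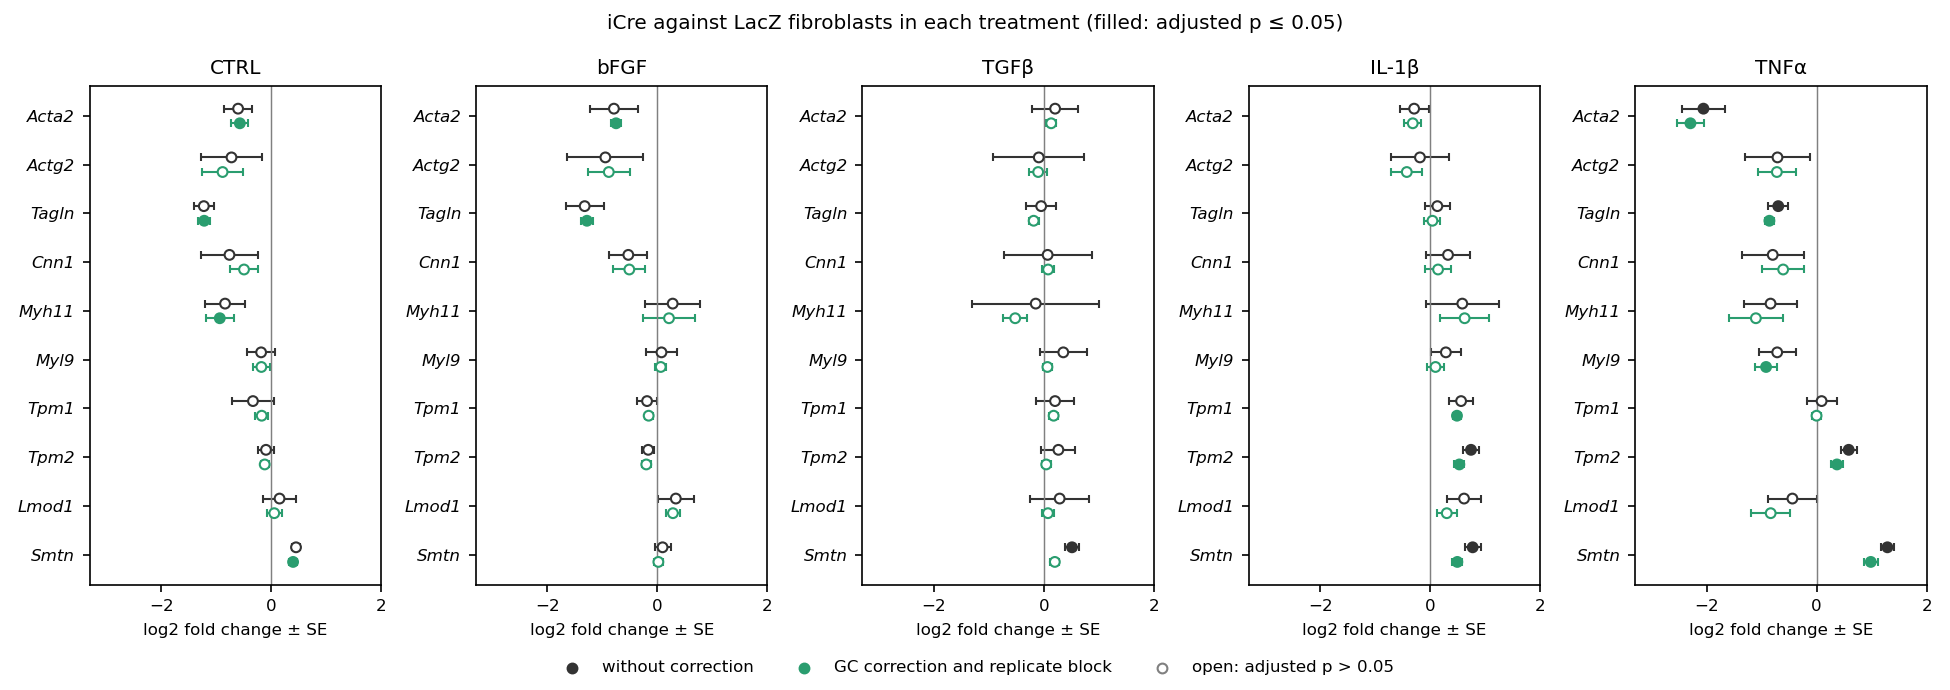
Log2 fold change ± SE of iCre against LacZ fibroblasts for the 10 genes under each of the 5 treatments, 4 libraries per group. Black points come from edgeR without a correction, green points from the fit with GC correction and the replicate block, and open points have an adjusted p above 0.05. Under TNFα Acta2 is lowest and Smtn highest in both fits.

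Over all 10 groups the mean level of Acta2 ran from 83.4 ± 45.5 CPM (iCre bFGF) over 118 ± 32.8 (iCre CTRL), 145 ± 81.3 (LacZ bFGF), 150.2 ± 93.9 (iCre TNFα), 177 ± 63.7 (LacZ CTRL), 279 ± 60.4 (iCre IL-1β) and 339 ± 130.2 (LacZ IL-1β) to 636 ± 173 (LacZ TNFα), 3996 ± 2181 (LacZ TGFβ) and 4697 ± 2557 CPM (iCre TGFβ). Neighbours in this order overlapped except LacZ TNFα and LacZ TGFβ. For Tagln the 3 lowest groups were iCre bFGF (45.6 ± 17.2 CPM), iCre CTRL (68.0 ± 11.5 CPM) and iCre TNFα (91.7 ± 18.0 CPM), and the 2 TGFβ groups were the only ones separated from the rest. Smtn had another order. LacZ TNFα (58.3 ± 6.72 CPM), LacZ IL-1β (74.0 ± 15.4 CPM) and LacZ CTRL (74.3 ± 4.66 CPM) were lowest. Then iCre CTRL (103 ± 5.98 CPM) stood apart from both neighbours, and iCre TGFβ (293 ± 20.5 CPM) was highest. For Myh11 all neighbours overlapped, from 0.341 ± 0.189 CPM in iCre TNFα to 5.04 ± 7.38 CPM in LacZ TGFβ cells.

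Across the 10 group means (log2 CPM with a pseudocount of 0.5), Pearson's r between pairs of members was 0.526 to 0.989, with a median of 0.898 over 45 pairs. All points come from the same 40 libraries, and no p is given. The 5 protein-coding genes outside the list whose group means followed Acta2 most closely, of 9365 genes that averaged 10 CPM or more, were Gadd45b (r = 0.985), Eprs (0.978), Slc6a9 (0.977), Yif1b (0.976) and Dag1 (0.976). Among the same genes, members ranked 21 (Tagln), 89 (Myl9), 98 (Cnn1), 147 (Tpm1), 882 (Lmod1), 901 (Tpm2) and 2878 (Smtn). Many genes outside the list thus followed Acta2 more closely than Lmod1, Tpm2 and Smtn did. Actg2 and Myh11 averaged too little to be ranked. Gadd45b had a mean of 21.9 CPM in LacZ CTRL, 121 CPM in LacZ TGFβ and 41.9 CPM in LacZ TNFα cells. In iCre cells its means were 128 CPM with TGFβ and 21.7 CPM with TNFα.

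The regulators of these genes were partly called. Of 7 regulators of SRF and smooth muscle genes, 3 were called higher and 1 lower with TGFβ in LacZ cells. Of all genes tested, 17.5% were called higher and 19.3% lower there (19.6% and 22.5% with the replicate block, which left the counts of these 7 as they were). The median change of the 7 was 0.51 on the log2 scale. Srf, the transcription factor itself, rose from 24.6, 27.2, 24.4 and 22.2 CPM to 66.5, 78.4, 59.4 and 57.4 CPM (1.43 ± 0.11, adjusted p = 9.16e-06). Its actin-regulated coactivator Mrtfa rose by 0.51 ± 0.14 (log2, adjusted p = 0.0142), a call lost without replicate 1 or 3 (adjusted p = 0.0658 and 0.0632). The related Mrtfb fell from a mean of 53.2 to 42.5 CPM (-0.30 ± 0.085, adjusted p = 0.0173), a call lost without replicate 1, 3 or 4 (adjusted p = 0.0805, 0.0865 and 0.0831). Tead1, a TEAD factor, rose from 352 ± 32.2 to 615 ± 114 CPM (0.82 ± 0.14, adjusted p = 0.00114). Myocd, which encodes myocardin, was at 0 to 0.302 CPM in LacZ CTRL and 0.118 to 0.267 CPM in LacZ TGFβ libraries, where no change could be detected at this depth. With TNFα Srf also rose in LacZ cells (0.45 ± 0.12, adjusted p = 0.0295), a call lost without replicate 1, 3 or 4 (adjusted p = 0.101, 0.0584 and 0.108). Tead1 was lower in iCre than in LacZ cells under TNFα (318 ± 104 against 543 ± 28.9 CPM, -0.75 ± 0.20, adjusted p = 0.0173), a call lost without replicate 1, 3 or 4 (adjusted p = 0.0624, 0.113 and 0.0753).

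Of 8 genes that control actomyosin contraction, 4 were called higher and 1 lower with TGFβ in LacZ cells, and 5 higher and 3 lower with the block. Cald1 (caldesmon, an actin-binding brake on myosin) rose from 696 ± 97.9 to 2170.2 ± 314 CPM (1.66 ± 0.16, adjusted p = 3.11e-05). The GTPase gene Rhoa rose by 0.75 ± 0.091 and its kinase Rock2 by 0.46 ± 0.12 (log2, adjusted p = 0.000126 and 0.0122). Ppp1r12b, a regulatory subunit of myosin phosphatase, fell from 122 ± 14.8 to 56.3 ± 4.55 CPM (-1.10 ± 0.11, adjusted p = 2.72e-05). In iCre cells 2 of the 8 were called higher and 2 lower with TGFβ (2 and 3 with the block), where 18.6% of all genes were called higher and 18.8% lower (20.4% and 21.1% with the block). Their median change was 0.29 in LacZ and -0.059 in iCre cells on the log2 scale.

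Of 18 widely expressed or striated paralogs of the members, 11 were called higher and 1 lower with TGFβ in LacZ cells, and as many in iCre cells, beside 17.5% of all genes called higher in LacZ and 18.6% in iCre cells. The block gave the same counts, and the median change of the 18 was 1.32 in LacZ cells against -0.17 over all genes (log2). Acta1 (skeletal α-actin) went from 0.0223, 1.12, 0.426 and 0.203 CPM to 3.48, 106, 10.6 and 6.55 CPM (6.14 ± 1.28, adjusted p = 0.00357), or 4.90 without replicate 2, its highest library (adjusted p = 7.86e-05). Tagln2 rose from 165 ± 12.8 to 856 ± 168 CPM and Actg1, a cytoplasmic actin, from 178 ± 32.8 to 836 ± 183 CPM (2.39 ± 0.16 and 2.26 ± 0.18, adjusted p = 3.47e-06 and 1.02e-05). Myl12b, a nonmuscle regulatory light chain, fell from 35.1 ± 4.74 to 18.2 ± 3.02 CPM (-0.93 ± 0.15, adjusted p = 0.000789). Of 12 other cytoskeletal genes of smooth muscle, 7 were called higher and 2 lower in LacZ cells (8 and 3 with the block), with a median change of 0.94 (log2). Actn1 (α-actinin 1), Pdlim7 and Flna (filamin A) rose by 3.0 ± 0.19, 1.98 ± 0.17 and 1.72 ± 0.21 on the log2 scale (adjusted p = 3.28e-06, 1.48e-05 and 0.000116). Synpo2 and Fhl1 fell by 0.88 ± 0.23 and 0.72 ± 0.25 (adjusted p = 0.0117 and 0.0419), and both calls were lost without replicate 1, 3 or 4 (lowest adjusted p = 0.0632 for Synpo2 and 0.0994 for Fhl1).

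Among the markers of other cell types, Rgs5 was at 287, 81.5, 532 and 408 CPM in LacZ CTRL and 542, 386, 934 and 817 CPM in LacZ TGFβ replicates 1 to 4 (1.04 ± 0.48, adjusted p = 0.120, and 0.000663 with the block and 0.00767 without replicate 2). Of the 7 pericyte and smooth muscle markers 2 were called higher and 3 lower with TGFβ in LacZ cells (3 and 4 with the block), and their summed level was 213 to 751 CPM in LacZ CTRL and 774 to 1336 CPM in LacZ TGFβ libraries. Their median change was -0.70 (log2). In iCre cells 2 were called higher and 2 lower with TGFβ (3 and 3 with the block), with a median of -0.29. Their sum was 374 to 1022 CPM in iCre CTRL and 849 to 2066 CPM in iCre TGFβ libraries. The share of all genes called with TGFβ was 17.5% higher and 19.3% lower in LacZ and 18.6% and 18.8% in iCre cells (19.6% and 22.5%, and 20.4% and 21.1%, with the block). The part of such cells in the rise of the contractile genes was not tested. Of the 7 fibroblast markers 2 were called higher and 3 lower in each virus (2 and 4 with the block), and their sum was 27184 to 42867 CPM in LacZ CTRL and 50870.5 to 60294 CPM in LacZ TGFβ libraries. Of the 3 cardiomyocyte markers tested, 1 was called lower in LacZ and 3 were in iCre cells (1 in each with the block). With the block alone, 1 of 3 endothelial markers was called lower in both viruses, and of 3 leukocyte markers 1 was called lower in LacZ and 1 higher in iCre cells.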

How the data were processed

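RNA-seq libraries of 40 samples were analysed from 1 deposited table of counts per Ensembl gene. According to the study's methods, the authors aligned single-end reads to mm10 with STAR after FastQC. Per the labels, the deposited counts were made with HTSeq 0.10.0, with FastQC 0.10.1 (the methods give another FastQC version), and they are neither pooled nor normalised. The strand setting and annotation release are not given in the sources used here, and the labels and the methods name different library kits. Totals were 25360947 to 66160732 counts per library with a median of 36183962, which limits the precision for Actg2 and Myh11.

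The 10 members and the gene lists were chosen with earlier results of these data known. Genes with at least 10 counts over the 40 libraries (25210) were tested by edgeR 4.0.16 in R 4.3.3 (TMM, quasi-likelihood) on the 8 libraries of each of 8 ligand and 5 virus comparisons, or on the 16 of each of 4 interactions, with Benjamini-Hochberg adjustment and a threshold of 0.05. The scripts recovered known changes in data simulated from these libraries. Alternatives were DESeq2 1.42.0, its size factors, 2 other filters, protein-coding genes alone, all 40 libraries in 1 fit, each replicate left out, the replicate number as a block, and correction for GC content (24970 genes) with and without the block. The labels do not say that a replicate number is shared by a preparation. Same-numbered libraries deviated together from their group means, with a correlation of 0.286 to 0.861 (mean 0.571) over the 84 pairs within comparisons, so the numbers were taken as pairs and blocked values of members, and blocked counts of lists, are printed where they change a call.

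Named genes were all members, Map3k7, up to 3 rises and 3 falls of each of 4 lists with TGFβ in LacZ cells, Srf, Myocd, Mrtfa and Mrtfb in any case, the 5 genes most like Acta2, and Rgs5. Pcsk7 was named in addition because it overlaps Tagln.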

Additional observations from a re-analysis of the deposited data

Results flagged for a closer look

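In 6 of 100 groups of 4 replicates (10 genes in 10 groups), 1 library lay far from the other 3 by Dixon's criterion, which chance alone gives in about 1 group of 20. Replicate 2 was the high library in 5 of them. Tpm1 was at 1083 CPM in LacZ CTRL replicate 2 against 323 to 365 CPM in the others. It was at 898 CPM in iCre IL-1β replicate 2 (530.1 to 568 CPM in the others) and at 1108 CPM in iCre TNFα replicate 2 (582 to 600.3 CPM). Tpm2 was at 163 CPM in LacZ CTRL replicate 2 (108 to 113 CPM in the others), and Smtn at 323 CPM in iCre TGFβ replicate 2 (278 to 285 CPM). The sixth was low, with Smtn at 114 CPM in iCre TNFα replicate 1 against 148 to 151 CPM.

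The response to a ligand differed between iCre and LacZ cells by edgeR's interaction term for 3 pairs of gene and ligand. These were Tagln with IL-1β (1.35 ± 0.32 on the log2 scale, SE, adjusted p = 0.0135), Tpm2 with IL-1β (0.83 ± 0.22, adjusted p = 0.0263) and Smtn with TNFα (0.82 ± 0.14, adjusted p = 0.000907). Of all 25210 genes, this term called 696 higher and 1247 lower with IL-1β, and 2113 higher and 1941 lower with TNFα. It called no member with TGFβ or bFGF, beside 4.51% and 0% of all genes. Whether 3 pairs exceed the share over all genes was not tested. The Tagln and Tpm2 calls were each lost without some of the replicates. That of Tpm2 was also lost with GC correction alone or with all libraries fitted together. The Smtn call held without each replicate in turn.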

How the results depend on the processing

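Each count of called members was recomputed under 13 alternatives fixed at the outset, which gave 221 values for 17 comparisons, of which 156 stayed within 1.5 times. Shares over all genes stand in the Results for the main fit and, where used, for fits with the block. For the other alternatives no share is given here, so these counts are not read as results about the members. In the 42 pairs of gene and comparison that were called, 484 of 546 values kept direction and call, 62 lost the call and 0 reversed. All 42 calls held with DESeq2, RLE normalization, filterByExpr, no filter and the replicate block. Against CTRL in LacZ cells, bFGF gave 2 called members, 4 with DESeq2, 5 with the replicate block, 5 with GC correction and the block, and 1 to 2 without 1 replicate. IL-1β gave 3 in LacZ, 5 with the block, 5 with GC correction and the block, 1 with all 40 libraries and 0 to 4 without 1 replicate. TNFα gave 3 in LacZ, 8 with the block, 8 with GC correction and the block, 1 with all 40 libraries and 2 to 6 without 1 replicate. TGFβ gave 9 in each virus, 7 to 9 in LacZ and 8 to 9 in iCre without 1 replicate. In iCre cells bFGF gave 0, 4 with DESeq2, 1 with GC correction, 7 with the block, 7 with both and 0 to 2 without 1 replicate. IL-1β gave 3 in iCre, 9 with the block, 6 with GC correction and the block, and 2 to 5 without 1 replicate. TNFα gave 3 in iCre, 7 with DESeq2, 5 with filterByExpr, 8 with the block, 7 with GC correction and the block, 1 with all 40 libraries and 0 to 4 without 1 replicate. Between iCre and LacZ, CTRL gave 0, 2 with DESeq2, 1 with filterByExpr, 1 with no filter, 4 with the block, 4 with GC correction and the block, 1 with all 40 libraries and 0 to 2 without 1 replicate. bFGF gave 0, 1 with DESeq2, 2 with the block, 2 with GC correction and the block, and 1 with all 40 libraries. TGFβ gave 1, 4 with the block, 0 with GC correction, 0 with GC correction and the block, and 0 to 1 without 1 replicate. IL-1β gave 2, 1 with GC correction and 0 to 3 without 1 replicate. TNFα gave 4, and 2 to 4 without 1 replicate. The interaction with TGFβ gave 0, 1 with DESeq2, 1 with the block and 1 with GC correction and the block. That with IL-1β gave 2, 1 with GC correction, 1 with all 40 libraries and 0 to 2 without 1 replicate. That with TNFα gave 1, 3 with DESeq2, 3 with filterByExpr, 3 with the block, 3 with GC correction and the block, 2 with protein-coding genes only and 1 to 2 without 1 replicate. The block also gave 3 against 2 between iCre and LacZ with IL-1β, 5 against 4 with TNFα, and 3 against 2 for the interaction with IL-1β, and it left the other counts of members as they were. With fewer samples in a fit calls are harder to reach, and the cause of the other changes was not tested. Myh11, Actg2 and Cnn1 had few counts outside the TGFβ groups, which limits what their comparisons can detect.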
